A study of Mus musculus with 14 samples.

Results

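The genes followed here act when a cell passes from G2 into mitosis and divides. They comprise 46 genes listed by name, and 45 of them were matched to an array probe set that carries 1 gene symbol, out of 19931 genes measured that way. Ccnb1, which encodes cyclin B1, was the 1 listed gene without such a probe set and has no value here. Each gene was read from 1 probe set, and for Top2a, the 1 gene with several, the probe set with the highest mean was used. The genes fall into 7 groups by function: 5 measured genes of mitotic entry, 6 of chromosome structure, 4 of the chromosomal passenger complex, 10 of the kinetochore and spindle checkpoint, 9 of the spindle and centrosome, 7 of cytokinesis and 4 of anaphase control.

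The series measured RNA of mouse hearts at E12.5 (embryonic day) on 14 arrays, 1 per sample, after amplification from 1 ng. Hearts with 1 mutant copy of Irx5 (Irx5+/-, 3 arrays) are the reference, and their label names no Irx3 allele. The other groups had lost the remaining copy of Irx5 (Irx5-/-, 3 arrays), both copies of Irx3 with Irx5 heterozygous (Irx3-/-;Irx5+/-, 4 arrays), or both genes (Irx3-/-;Irx5-/-, 4 arrays, called double mutants below). Every group therefore carries at least 1 mutant Irx5 copy, and no wild-type heart was compared. The title Irx5-/- names no Irx3 allele either, so hearts called without the Irx3 mutation below are those whose titles name none. Irx3 and Irx5 encode homeodomain transcription factors of the Iroquois family.

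Entry into mitosis is driven by Cdk1 bound to its B-type cyclins. Condensins and topoisomerase then compact and untangle the chromosomes, kinetochores attach them to the spindle, and a checkpoint holds the cell until attachment is complete. The anaphase-promoting complex next destroys securin and cyclins, the chromosomes part, and a central spindle directs cytokinesis. RNA of these genes accumulates in G2 and mitosis and is low in resting cells, and many of their promoters carry a cell cycle homology region (CHR), which binds the DREAM and MuvB complexes, beside CCAAT boxes that bind NF-Y. In the midgestation heart, cardiomyocytes, endocardial, epicardial and cushion cells all divide, so the level of these RNAs in a whole heart reflects its dividing cells of every type. In such bulk samples, fewer dividing cells and less of these RNAs per dividing cell cannot be told apart.

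Promoter letters show an element that most of these genes share and that the choice of genes did not use. RefSeq promoters (build GRCm38.p6, from 250 bases before to 50 after each start) were given for 38 of the 45 measured genes, as 41 windows, and not for Aurkb, Ccna2, Cdc25c, Incenp, Kif20a, Smc4 and Tpx2. The 6 letters of the CHR core, TTTGAA, searched on both strands so that it also appears as TTCAAA, occurred in 31 of the 41 windows (75.6%), against 17.9% of all 32851 windows. CCAAT, which on the other strand reads ATTGG, occurred in 29 of them (70.7%), against 37.4% of all windows, and both elements in 27 (65.9%), against 7%. At least 2 CCAAT matches were found in 18 windows (43.9%), against 11.7% of all. Of 40 CHR core matches, 30 began within 50 bases of the start, and in 1 window the elements overlapped. The stretch from -150 to 30 is shown for the gene of each function with the smallest p for the loss of Irx5, among those with a promoter, since these genes recur in the results. Each is written 5′ to 3′ along the gene, with both elements in capitals on either strand, and lies for Ccnb2 at chr9:70421525-70421704 on the minus strand, Top2a at chr11:99024160-99024339 on the minus strand, Cdca8 at chr4:124936888-124937067 on the minus strand, Bub1 at chr2:127831830-127832009 on the minus strand, Kif2c at chr4:117178743-117178922 on the minus strand, Kif20b at chr19:34922208-34922387 on the plus strand and Ube2c at chr2:164769779-164769958 on the plus strand.
Ccnb2: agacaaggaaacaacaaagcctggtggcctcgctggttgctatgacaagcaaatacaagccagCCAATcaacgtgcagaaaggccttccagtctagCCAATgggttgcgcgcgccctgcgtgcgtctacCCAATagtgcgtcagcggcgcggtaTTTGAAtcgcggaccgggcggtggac
Top2a: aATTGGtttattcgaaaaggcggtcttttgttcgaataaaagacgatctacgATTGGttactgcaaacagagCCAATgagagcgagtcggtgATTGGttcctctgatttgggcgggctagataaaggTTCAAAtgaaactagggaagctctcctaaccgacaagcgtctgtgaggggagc
Cdca8: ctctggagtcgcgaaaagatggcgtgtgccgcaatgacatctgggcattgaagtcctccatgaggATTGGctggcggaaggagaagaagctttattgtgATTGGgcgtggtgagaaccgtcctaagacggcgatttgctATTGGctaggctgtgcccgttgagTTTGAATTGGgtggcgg
Bub1: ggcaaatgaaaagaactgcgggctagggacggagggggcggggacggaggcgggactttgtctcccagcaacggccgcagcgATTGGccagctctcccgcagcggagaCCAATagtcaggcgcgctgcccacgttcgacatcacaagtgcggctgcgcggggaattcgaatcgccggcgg
Kif2c: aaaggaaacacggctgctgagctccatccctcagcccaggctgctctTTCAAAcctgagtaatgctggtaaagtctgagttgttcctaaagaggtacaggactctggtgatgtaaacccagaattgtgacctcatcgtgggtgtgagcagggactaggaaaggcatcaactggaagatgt
Kif20b: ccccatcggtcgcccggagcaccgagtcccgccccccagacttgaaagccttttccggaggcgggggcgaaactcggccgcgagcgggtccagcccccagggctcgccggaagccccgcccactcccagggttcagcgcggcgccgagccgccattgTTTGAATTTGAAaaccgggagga
Ube2c: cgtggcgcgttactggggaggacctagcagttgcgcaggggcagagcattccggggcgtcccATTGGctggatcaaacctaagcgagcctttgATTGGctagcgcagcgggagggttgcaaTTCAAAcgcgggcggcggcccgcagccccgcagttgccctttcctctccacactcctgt
A CHR core stood in 6 of these 7 stretches, Bub1 being the one without, and CCAAT in 5 of them, with 4 matches each in Top2a and Cdca8. In Kif20b the CHR core occurred 2 times back to back, and in Cdca8 it ran into a CCAAT match on the other strand. A match of letters describes the sequence and does not show binding.

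Before the results, some facts of the arrays matter. Whether arrays come from separate embryos is not in the labels, and the p-values below cover the spread among arrays, which may be technical. The array titled Irx3-/-;Irx5+/- replicate 4 has a description that names Irx5-/-, and it was kept with its title and genotype label, with values without it given below. Irx3 read 7.60 to 7.86 in double mutants and 7.87 to 8.17 in Irx3-/-;Irx5+/- hearts, against 8.43 to 8.53 in the reference and 8.14 to 8.25 in Irx5-/- hearts. The 8.17 belongs to Irx3-/-;Irx5+/- replicate 4, the array of mixed labels, which for Irx3 lay within the Irx5-/- range and above the 7.87, 7.89 and 7.93 of its group's other arrays. Its title is therefore not borne out by Irx3. Irx5 read 7.86 to 8.34 in Irx5-/- hearts and 7.52 to 8.43 in double mutants, which overlaps the 8.19 to 8.41 of the reference, so the Irx5 signal does not check those labels array by array. Neither probe set's place relative to the deletions is known here, and a probe set outside a deletion would check nothing. Groups are named by their titles and genotype labels throughout. Without Irx3-/-;Irx5+/- replicate 4, the mean Irx5 effect described below was above 0 for 44 of 45 genes with a median of 0.34, and 32 had an unadjusted p under 0.05 on the higher side, the interaction had a median of 0.19 with 8 such genes, and the mean Irx3 effect one of 0.05 with 2. Here and below, the share of all genes at that level is not given for fits without single arrays. With every array kept it was 8.32%, 1.89% and 2.25% for these 3 effects. All values are log2 intensities as the authors normalised them, and array medians ran from 7.89 to 7.99.

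The G2 and mitosis genes were higher on average in every array labelled Irx5-/- than in any array labelled Irx5+/-. For each array, each gene's deviation from its own mean over the 14 arrays was averaged over the 45 genes. That mean was -0.17, -0.11 and -0.14 in the 3 reference arrays and -0.06, -0.20, -0.29 and -0.21 in the 4 Irx3-/-;Irx5+/- arrays. It was -0.02, 0.19 and 0.08 in Irx5-/- hearts and 0.12, 0.21, 0.27 and 0.33 in double mutants. The 7 arrays labelled Irx5-/- thus lay above the other 7 without overlap, though Irx5-/- replicate 1 came within a few hundredths of Irx3-/-;Irx5+/- replicate 1. This separation rests on the title and genotype label of Irx3-/-;Irx5+/- replicate 4, whose description names Irx5-/-. At -0.21 that array lay among the low ones, so under its description the Irx5 states would overlap. Double mutants had the highest group mean in 39 of the 45 genes, which held for 22.4% of all genes, and Irx3-/-;Irx5+/- hearts the lowest in 28 of them (17.2% of all genes).

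**Figure D1:**
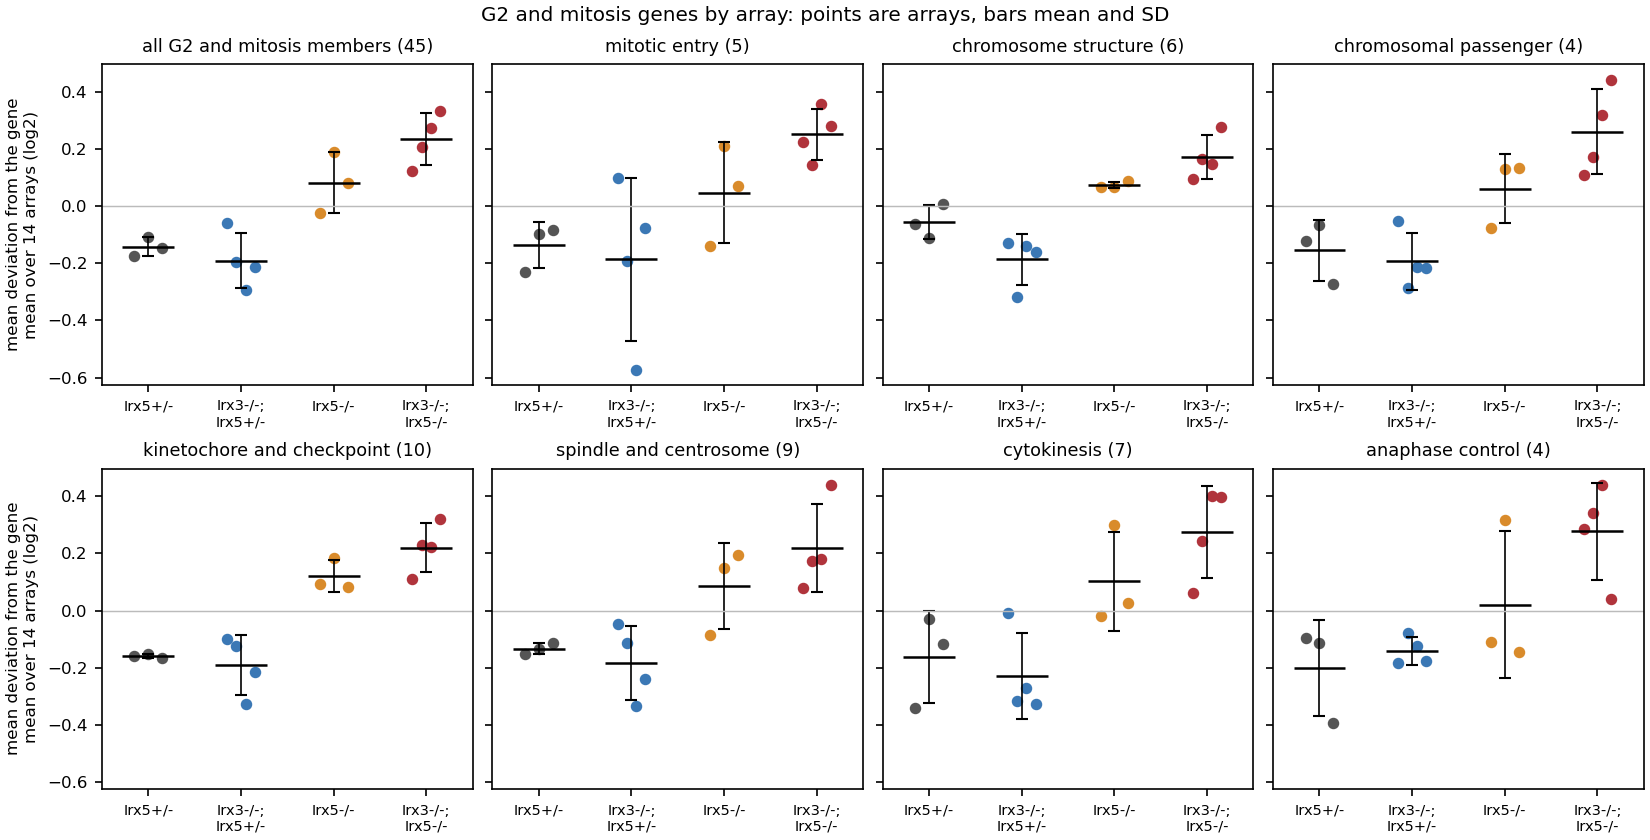
Mean deviation (log2) of G2 and mitosis genes from their own means over 14 arrays, for all 45 genes and for each of the 7 functional groups (number of genes in brackets). Points are arrays and bars show the mean and SD of each genotype; in the first panel the 7 arrays labelled Irx5-/- lie between -0.02 and 0.33 and the other 7 between -0.29 and -0.06.

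The mean effect of losing the remaining Irx5 copy, averaged over hearts with and without the Irx3 mutation, was above 0 for 44 of the 45 genes, with a median log2 difference of 0.35. Over all genes the median was -0.03 and 42.9% lay above 0. No G2 and mitosis gene passed the test over all genes in limma (0 of 45, smallest adjusted p = 0.0852, against 0.0151% of all genes called). Before adjustment, 32 were higher and 0 lower at p under 0.05, where 8.32% of all genes were higher and 7.03% lower. Bub1 and Top2a were the 2 genes whose 7 Irx5-/- arrays all lay above the other 7, which held for 0.266% of all genes. That too rests on the label of Irx3-/-;Irx5+/- replicate 4. It read 9.68 for Bub1 and 11.03 for Top2a, within the range of the other Irx5+/- arrays. The largest difference was Kif2c at 0.58 ± 0.13 (SE), and the lowest Smc4 at -0.05 ± 0.08. Aurka stood at 0.00 and is counted above 0 by less than the rounding. The difference was thus small for each gene, and nearly all genes lay on one side of 0.

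**Figure D2:**
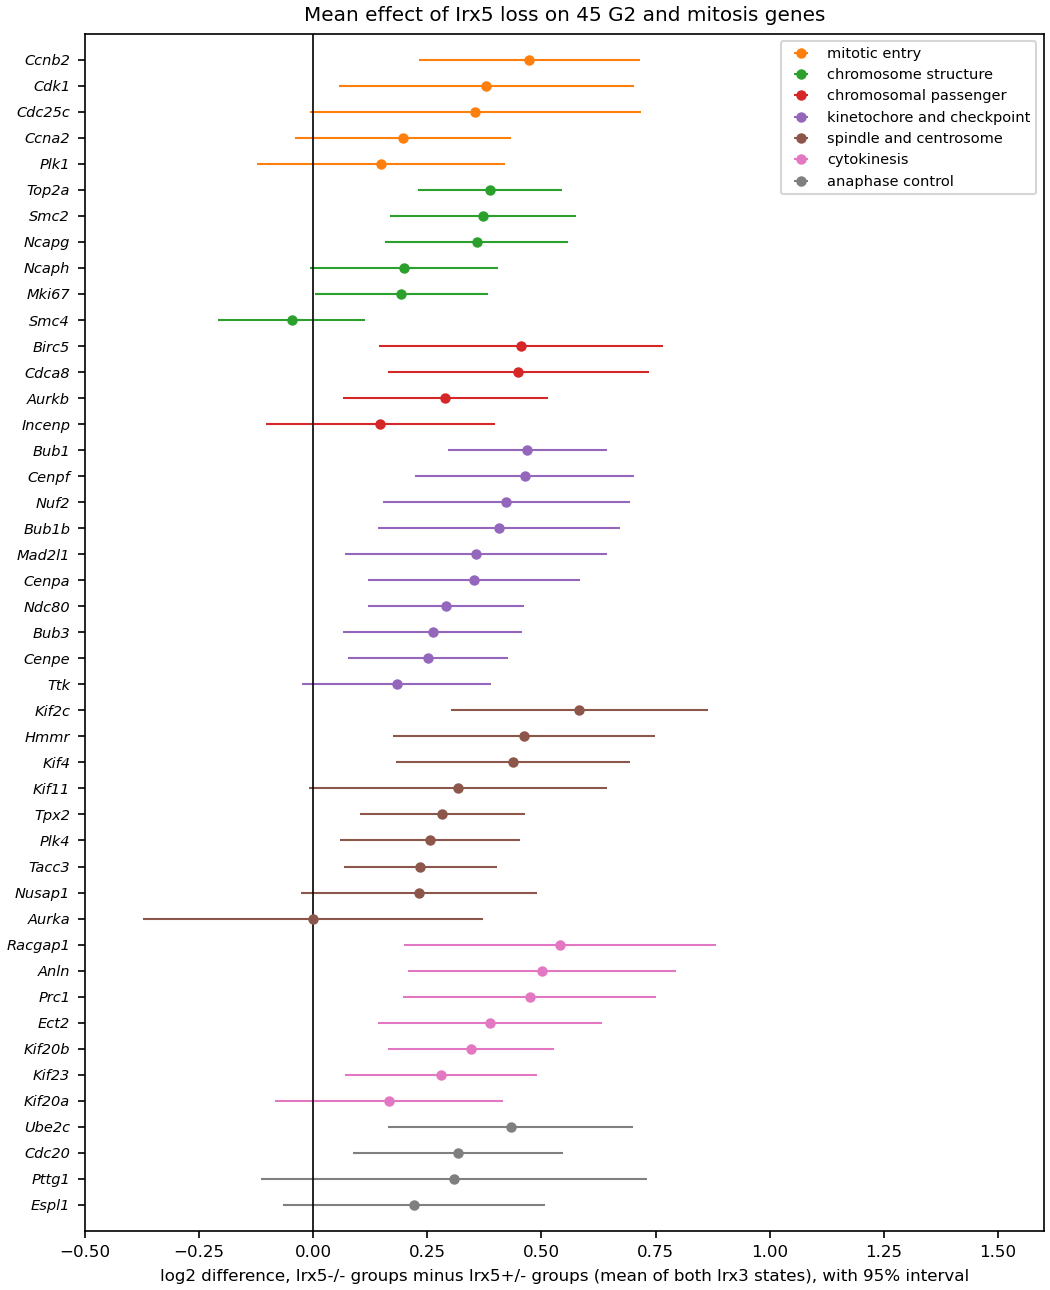
Mean log2 difference of the Irx5-/- groups from the Irx5+/- groups for each of 45 G2 and mitosis genes, coloured by function, with 95% intervals from limma. All but Smc4 and Aurka lie to the right of 0, with Kif2c farthest at 0.58, and the intervals are for single genes before adjustment over all genes.

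Among genes of mitotic entry, all 5 lay above 0 for the loss of Irx5 (median 0.36). Of them 2 had an unadjusted p under 0.05, where 8.32% of all genes were higher. Ccnb2, which encodes cyclin B2, read 11.03, 10.93 and 11.01 in the reference and 11.10, 11.06, 10.63 and 10.94 in Irx3-/-;Irx5+/- hearts. It read 10.85, 11.57 and 11.35 in Irx5-/- hearts and 11.52, 11.47, 11.68 and 11.78 in double mutants. The double mutant arrays were above every Irx5+/- array, while Irx5-/- replicate 1 fell among them. The mean Irx5 effect on Ccnb2 was 0.47 ± 0.11 (SE, adjusted p = 0.117). Cdk1, the kinase that starts mitosis, read 10.32, 10.96 and 10.42 in the reference, 10.87, 10.49, 9.96 and 10.88 in Irx3-/-;Irx5+/-, 10.78, 11.08 and 10.97 in Irx5-/- and 10.88, 11.17, 10.91 and 10.77 in double mutant hearts. Its groups overlapped, with Irx3-/-;Irx5+/- replicate 3 far below the rest (0.38 ± 0.15, adjusted p = 0.263). Cdc25c, the phosphatase that activates Cdk1, lay at 0.36 ± 0.17 and Ccna2, cyclin A2, at 0.20 ± 0.11. Plk1, a kinase used from entry to exit, had the weakest evidence of the group. It read 9.27, 9.04 and 9.97 in the reference, 9.29, 9.25, 9.11 and 9.51 in Irx3-/-;Irx5+/-, 9.23, 9.41 and 9.42 in Irx5-/- and 9.61, 9.50, 9.83 and 9.71 in double mutant hearts, and reference replicate 3 was the highest of all 14 arrays (0.15 ± 0.13, adjusted p = 0.561).

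Chromosome structure genes lay above 0 in 5 of 6 cases (median 0.28), and 4 were higher at an unadjusted p under 0.05 (8.32% of all genes). Top2a, the topoisomerase that untangles sister chromatids, read 11.04, 11.20 and 11.31 in the reference and 11.11, 11.09, 10.80 and 11.03 in Irx3-/-;Irx5+/- hearts. It read 11.33, 11.47 and 11.53 in Irx5-/- hearts and 11.42, 11.58, 11.49 and 11.59 in double mutants. In the probe set used, 1 of 2 for Top2a, the Irx5 states did not overlap, and the nearest arrays were 11.31 and 11.33. Values of the other probe set are not shown. The mean Irx5 effect on Top2a was 0.39 ± 0.07 (SE), a 1.31-fold difference with adjusted p = 0.0852, and Top2a had the smallest residual SD of all 45 genes, 0.117. The condensin core is a pair of ATPases, Smc2 and Smc4, and these 2 genes differed from each other. Smc2 read 10.03, 9.86 and 10.43 in the reference, 9.96, 9.88, 10.16 and 10.07 in Irx3-/-;Irx5+/-, 10.51, 10.41 and 10.43 in Irx5-/- and 10.37, 10.45, 10.23 and 10.61 in double mutant hearts, with reference replicate 3 as the 1 Irx5+/- array inside the Irx5-/- range (0.37 ± 0.09, adjusted p = 0.132). Smc4 read 11.33, 11.47 and 11.46 in the reference, 11.44, 11.18, 11.49 and 11.52 in Irx3-/-;Irx5+/-, 11.08, 11.42 and 11.29 in Irx5-/- and 11.41, 11.51, 11.50 and 11.46 in double mutant hearts. All 4 groups overlapped, and the 95% interval of its Irx5 effect ran from -0.21 to 0.11. Ncapg and Ncaph, which are regulatory subunits of condensin I, lay at 0.36 ± 0.09 and 0.20 ± 0.10. Mki67, which keeps mitotic chromosomes apart and is used as a proliferation marker, lay at 0.19 ± 0.09.

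The chromosomal passenger complex corrects faulty attachments and later moves to the central spindle. Its 4 genes all lay above 0 (median 0.37), and 3 had an unadjusted p under 0.05, where 8.32% of all genes were higher. Cdca8, which encodes borealin, read 9.05, 9.65 and 9.34 in the reference, 9.33, 9.40, 9.16 and 9.53 in Irx3-/-;Irx5+/-, 9.39, 9.99 and 9.69 in Irx5-/- and 9.55, 9.78, 10.23 and 10.08 in double mutant hearts. Its double mutant arrays were above all Irx3-/-;Irx5+/- arrays but not above all reference arrays (0.45 ± 0.13, adjusted p = 0.172). Birc5, which encodes survivin, read 10.79, 10.22 and 9.77 in the reference, 10.90, 10.41, 10.46 and 10.30 in Irx3-/-;Irx5+/-, 10.52, 10.85 and 10.85 in Irx5-/- and 10.80, 10.90, 11.11 and 10.98 in double mutant hearts. The reference arrays of Birc5 ran from 9.77 to 10.79, and the 5 lowest arrays were all Irx5+/- (0.46 ± 0.14, adjusted p = 0.193). Incenp, the scaffold of the complex, read 9.32, 9.68 and 9.99 in the reference, 9.43, 9.19, 9.44 and 9.36 in Irx3-/-;Irx5+/-, 9.76, 9.26 and 9.58 in Irx5-/- and 9.80, 9.60, 9.66 and 10.06 in double mutant hearts. In Incenp the reference overlapped the double mutants (0.15 ± 0.12, adjusted p = 0.536). Aurkb, the kinase of the complex, lay at 0.29 ± 0.10.

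All 10 kinetochore and checkpoint genes lay above 0 (median 0.35), and 9 had an unadjusted p under 0.05, where 8.32% of all genes were higher. That share was the largest of the functions for this effect, next to 6 of 7 for cytokinesis. In double mutants against the reference it was 60%, below 85.7% for cytokinesis (7.9% of all genes). In double mutants against Irx3-/-;Irx5+/- hearts it was 70%, below 100% for the passenger complex (4.06% of all genes). Bub1, a checkpoint kinase of the kinetochore, read 9.79, 9.49 and 9.36 in the reference and 9.82, 9.87, 9.59 and 9.68 in Irx3-/-;Irx5+/- hearts. It read 9.95, 10.18 and 9.98 in Irx5-/- hearts and 10.18, 10.28, 10.22 and 10.09 in double mutants. All 7 Irx5-/- arrays were above all 7 others, the nearest being 9.87 and 9.95. Its mean Irx5 effect was 0.47 ± 0.08 (SE), a 1.38-fold difference with adjusted p = 0.0852. Cenpf, a large protein of the outer kinetochore, read 9.66, 9.92 and 10.01 in the reference, 9.97, 9.70, 9.61 and 9.76 in Irx3-/-;Irx5+/-, 10.10, 10.43 and 9.99 in Irx5-/- and 10.09, 10.19, 10.55 and 10.65 in double mutant hearts. The Irx5 states of Cenpf met at 10.01 and 9.99 (0.46 ± 0.11, adjusted p = 0.123). Ttk, the Mps1 kinase that starts the checkpoint, read 9.22, 9.11 and 9.46 in the reference, 8.92, 9.30, 9.10 and 8.85 in Irx3-/-;Irx5+/-, 9.41, 9.21 and 9.58 in Irx5-/- and 9.24, 9.33, 9.07 and 9.42 in double mutant hearts, with all groups overlapping (0.18 ± 0.10, adjusted p = 0.373). The other checkpoint genes lay at 0.41 ± 0.12 (Bub1b), 0.36 ± 0.13 (Mad2l1) and 0.26 ± 0.09 (Bub3). Of the Ndc80 complex, which binds microtubule ends, Nuf2 lay at 0.42 ± 0.13 and Ndc80 at 0.29 ± 0.08. Cenpa, the histone H3 variant of centromeres, lay at 0.35 ± 0.11, and Cenpe, a kinetochore motor, at 0.25 ± 0.08.

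Spindle and centrosome genes all lay at or above 0 (median 0.28) and held both the largest and some of the smallest differences. Of the 9, 6 had an unadjusted p under 0.05, where 8.32% of all genes were higher. Kif2c, a kinesin that shortens microtubules, read 8.30, 8.92 and 8.77 in the reference and 9.27, 9.02, 8.90 and 9.29 in Irx3-/-;Irx5+/- hearts. It read 9.34, 9.42 and 9.61 in Irx5-/- hearts and 9.43, 9.09, 9.59 and 9.88 in double mutants. The reference had the lowest mean and overlapped Irx3-/-;Irx5+/- hearts, and double mutant replicate 2 was the 1 Irx5-/- array within the range of the latter (0.58 ± 0.13, adjusted p = 0.111). Kif4, a chromosome-bound kinesin, read 9.31, 9.39 and 8.99 in the reference, 9.18, 9.28, 9.66 and 9.12 in Irx3-/-;Irx5+/-, 9.57, 9.75 and 9.69 in Irx5-/- and 9.44, 9.53, 10.03 and 9.97 in double mutant hearts. Irx3-/-;Irx5+/- replicate 3, at 9.66, was the 1 Irx5+/- array of Kif4 inside the Irx5-/- range (0.44 ± 0.12, adjusted p = 0.150). Aurka, the centrosome kinase, read 9.85, 9.75 and 9.20 in the reference, 9.74, 9.93, 9.52 and 9.76 in Irx3-/-;Irx5+/-, 9.33, 9.67 and 9.85 in Irx5-/- and 9.23, 10.23, 9.33 and 10.11 in double mutant hearts. The double mutants of Aurka split into a pair of high and a pair of low arrays, between which every other array lay except reference replicate 3 at 9.20, and the 95% interval of its Irx5 effect, -0.37 to 0.37, is wide. Hmmr, a spindle assembly protein, lay at 0.46 ± 0.13, Kif11, the motor that parts the spindle poles, at 0.32 ± 0.15, and Tpx2, which activates Aurka on the spindle, at 0.28 ± 0.08. Plk4, which starts centriole duplication, lay at 0.26 ± 0.09, Tacc3, which stabilises spindle fibres, at 0.23 ± 0.08, and Nusap1 at 0.23 ± 0.12.

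Cytokinesis genes all lay above 0 (median 0.39), 6 of 7 at an unadjusted p under 0.05, where 8.32% of all genes were higher. Prc1, which bundles the central spindle, read 9.26, 9.62 and 9.47 in the reference and 9.31, 9.07, 9.17 and 9.0 in Irx3-/-;Irx5+/- hearts. It read 9.37, 9.93 and 9.48 in Irx5-/- hearts and 9.43, 10.02, 10.11 and 10.20 in double mutants. The 4 Irx3-/-;Irx5+/- arrays were below all 4 double mutant arrays, while the reference and Irx5-/- arrays overlapped (0.47 ± 0.13, adjusted p = 0.150). Kif20b, a kinesin of late mitosis, read 8.90, 9.20 and 9.30 in the reference, 9.18, 9.10, 9.10 and 9.34 in Irx3-/-;Irx5+/-, 9.38, 9.29 and 9.52 in Irx5-/- and 9.44, 9.79, 9.53 and 9.68 in double mutant hearts. The Irx5 states of Kif20b overlapped by a few hundredths, between 9.29 and 9.34 (0.35 ± 0.08, adjusted p = 0.127). Kif20a, the motor that carries the passenger complex to the midzone, read 9.39, 9.75 and 9.56 in the reference, 9.50, 9.17, 8.86 and 9.01 in Irx3-/-;Irx5+/-, 9.20, 9.67 and 9.34 in Irx5-/- and 9.41, 9.54, 9.83 and 9.74 in double mutant hearts. Reference and double mutant arrays of Kif20a overlapped, and the low arrays were mostly Irx3-/-;Irx5+/- (0.17 ± 0.12, adjusted p = 0.482). The centralspindlin subunits Racgap1 and Kif23 lay at 0.54 ± 0.16 and 0.28 ± 0.10, Ect2, the exchange factor that activates RhoA at the cell equator, at 0.39 ± 0.11, and Anln, anillin of the contractile ring, at 0.50 ± 0.14.

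The 4 anaphase control genes all lay above 0 (median 0.31), 2 at an unadjusted p under 0.05, where 8.32% of all genes were higher. Ube2c, the ubiquitin-conjugating enzyme of the anaphase-promoting complex, read 10.18, 10.16 and 9.90 in the reference and 10.40, 10.54, 10.16 and 10.22 in Irx3-/-;Irx5+/- hearts. It read 10.14, 10.97 and 10.27 in Irx5-/- hearts and 10.76, 10.70, 11.05 and 10.75 in double mutants. The double mutants were above all Irx5+/- arrays, and of the Irx5-/- arrays replicate 2 stood with them (0.43 ± 0.13, adjusted p = 0.168). Cdc20, the activator of that complex, read 9.39, 9.27 and 9.41 in the reference, 9.25, 9.08, 9.42 and 9.15 in Irx3-/-;Irx5+/-, 9.41, 9.73 and 9.35 in Irx5-/- and 9.28, 9.92, 9.80 and 9.87 in double mutant hearts, where replicate 1 stood apart from the other 3 (0.32 ± 0.11, adjusted p = 0.208). Pttg1, securin, read 10.46, 11.04 and 9.64 in the reference, 10.47, 10.76, 10.57 and 10.88 in Irx3-/-;Irx5+/-, 10.77, 10.71 and 10.42 in Irx5-/- and 11.24, 11.12, 11.34 and 10.43 in double mutant hearts. It had the largest residual SD of the 45 genes, 0.410, and its groups overlapped (0.31 ± 0.20, adjusted p = 0.448). Espl1, separase, lay at 0.22 ± 0.13.

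**Figure D3:**
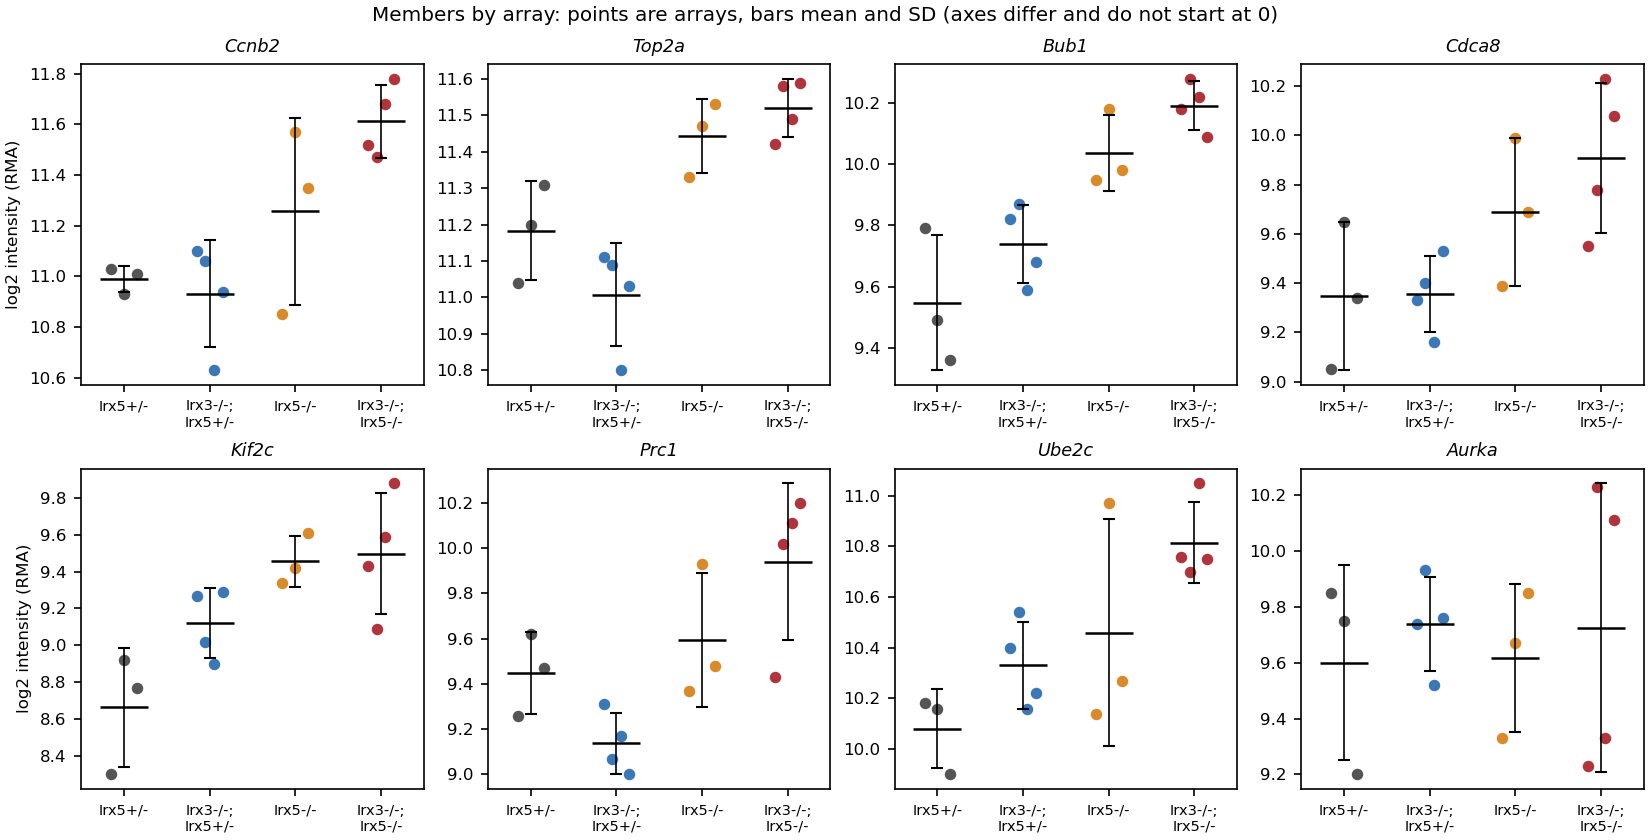
Log2 intensity of 8 G2 and mitosis genes in 14 arrays. Points are arrays and bars the mean and SD of each genotype, and each panel has its own axis that does not start at 0; Top2a and Bub1 separate the 7 Irx5-/- arrays from the 7 others, and Aurka does not.

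In Irx5-/- against Irx5+/- hearts, which differ by the second Irx5 copy alone as far as the labels say, 39 of the 45 genes lay above 0 with a median of 0.26, against a median of -0.03 and 44.4% above 0 over all genes. No gene passed in limma (0 of 45, and 0% of all genes called), and the smallest adjusted p was 0.252. At an unadjusted p under 0.05, 9 were higher and 0 lower, where 5.99% of all genes were higher and 4.66% lower, and in 12 genes the Irx5-/- arrays were all above the reference, which held for 6.71% of all genes. In 0 genes were they all below it (9.52% of all genes). Kif2c lay at 0.79 ± 0.20 (SE), Bub1 at 0.49 ± 0.12, Nuf2 at 0.52 ± 0.19, Racgap1 at 0.65 ± 0.24, Kif4 at 0.44 ± 0.18 and Smc2 at 0.35 ± 0.14. On the other side lay Kif20a at -0.16 ± 0.18 and Smc4 at -0.16 ± 0.11. Kinetochore genes had a median of 0.31, with 10 of 10 above 0, and spindle genes one of 0.07, with 8 of 9 above 0. The size rested on single arrays: without Irx5-/- replicate 2 the median over the 45 genes was 0.13 and 5 genes had an unadjusted p under 0.05, and without Irx5-/- replicate 3 that count was also 5. The median was 0.13 with the sarcomere mean as a term, and the count was 5 with the endothelial mean.

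In double mutants against the reference, all 45 genes lay above 0, with a median of 0.37, against a median of -0.03 and 43.9% above 0 over all genes. No G2 and mitosis gene passed in limma (0 of 45, against 0.0201% of all genes called). Those higher at an unadjusted p under 0.05 numbered 26 and those lower 0, where 7.9% of all genes were higher and 5.56% lower. In 22 genes the double mutants were all above the reference and in 0 all below it, which held for 6.48% and 5.58% of all genes. Bub1 was nearest to passing at 0.64 ± 0.11 (SE, adjusted p = 0.0807), a 1.56-fold difference. Kif2c lay at 0.83 ± 0.18, Ube2c at 0.73 ± 0.18, Ccnb2 at 0.62 ± 0.16, Bub3 at 0.51 ± 0.13 and Kif20b at 0.48 ± 0.12, with adjusted p from 0.122 to 0.154. At the low end, Ttk lay at 0.00 ± 0.14 and Mki67 at 0.04 ± 0.12, and both turned below 0 when single arrays were left out. Without reference replicate 1, 1 gene of the 45 passed, while over all genes 23 passed, against 4 with every array kept. Leaving that array out, 16 of the 45 had an unadjusted p under 0.05. With the mean of sarcomere genes, which was lowest in reference replicate 3 at -1.64, as a term, the 26 became 10, and with that of endothelial genes 12. With either term 0 genes passed over all genes, and the share of all genes at the unadjusted level is not given for them.

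In double mutants against Irx3-/-;Irx5+/- hearts, which again differ by the remaining Irx5 copy, 44 of the 45 genes lay above 0. The median was 0.43, the largest of the comparisons made, against -0.02 and 44.5% above 0 over all genes. None passed in limma (0 of 45, smallest adjusted p = 0.281, against 0.00502% of all genes called). Higher at an unadjusted p under 0.05 were 33 and lower 0, where 4.06% of all genes were higher and 3.61% lower. In 20 genes the double mutants were all above and in 0 all below, which held for 2.64% and 2.18% of all genes. Tacc3 read 10.60, 10.63, 10.65 and 10.86 in double mutants and 10.14, 10.26, 9.86 and 10.27 in Irx3-/-;Irx5+/- hearts, a difference of 0.55 ± 0.10 (SE) with no overlap. Prc1 lay at 0.80 ± 0.17, Top2a and Tpx2 at 0.51 ± 0.10 and 0.51 ± 0.11, Ndc80 at 0.52 ± 0.10 and Cenpe at 0.50 ± 0.11. Aurka lay at -0.02 ± 0.23 and Smc4 at 0.06 ± 0.10, and the sign of each turned when single arrays were left out. Without the array of mixed labels, Irx3-/-;Irx5+/- replicate 4, 44 genes lay above 0 with a median of 0.43, and 31 had an unadjusted p under 0.05. With the endothelial mean as a term the 33 became 19.

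With Irx5 heterozygous, the differences with loss of Irx3 lay on both sides of 0. In Irx3-/-;Irx5+/- against Irx5+/- hearts, 16 of the 45 genes lay above 0 with a median of -0.06, against 0.00 over all genes and 50.04% above 0. None passed in limma (0 of 45, and 0% of all genes called, smallest adjusted p = 0.841). At an unadjusted p under 0.05, 2 were higher, Kif2c at 0.45 ± 0.18 and Bub3 at 0.29 ± 0.13, where 2.85% of all genes were higher. Bub3 was the 1 gene whose Irx3-/-;Irx5+/- arrays were all above the reference (2.86% of all genes). At that level 6 were lower, where 2.22% of all genes were lower, and these were Cenpe at -0.40 ± 0.12 (SE), Mki67 at -0.39 ± 0.12, Ndc80 at -0.30 ± 0.11, Tacc3 at -0.29 ± 0.11, Kif20a at -0.43 ± 0.16 and Plk4 at -0.34 ± 0.13. For Cenpe, Ndc80, Tacc3 and Plk4 the 4 Irx3-/-;Irx5+/- arrays were all below the 3 reference arrays, which held for 2.87% of all genes. Cenpe read 9.69, 9.55, 9.49 and 9.48 there against 9.90, 9.92 and 10.05. Without Irx3-/-;Irx5+/- replicate 4 the median was -0.06, with 15 genes above 0. Leaving that array out, the count of 2 higher genes was 0, and it was also 0 without replicate 1 of the same group, 3 without its replicate 2 and 1 without reference replicate 3.

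In double mutants against Irx5-/- hearts, 40 of the 45 genes lay above 0, with a median of 0.14, against 0.01 over all genes and 52.8% above 0. None passed in limma (0 of 45, and 0% of all genes called). At an unadjusted p under 0.05, 2 were higher, Tacc3 at 0.34 ± 0.11 (SE) and Ccnb2 at 0.36 ± 0.16, and 0 lower, where 1.5% of all genes were higher and 2.13% lower. In 3 genes, Plk1, Tacc3 and Tpx2, the double mutants were all above the Irx5-/- arrays and in 0 all below, which held for 2.13% and 1.98% of all genes. The count of 2 genes higher at an unadjusted p under 0.05 was 6 without Irx5-/- replicate 2, 5 without double mutant replicate 1, 4 without Irx5-/- replicate 3 and 1 without Irx5-/- replicate 1. Ube2c lay at 0.35 ± 0.18, Prc1 at 0.35 ± 0.18, Tpx2 at 0.23 ± 0.12 and Smc4 at 0.21 ± 0.11, and on the other side Ttk at -0.14 ± 0.14 and Nuf2 at -0.04 ± 0.18. Averaged over both Irx5 states, the effect of Irx3 loss had a median of 0.05, with 29 of 45 genes above 0 (0.00 and 52.0% over all genes), and 0 of 45 passed (0% of all genes called). Bub3 lay at 0.25 ± 0.09 and Ube2c at 0.30 ± 0.13, the 2 genes with an unadjusted p under 0.05 on the higher side (2.25% of all genes). That count ran from 0, without Irx5-/- replicate 1, to 4, and was 4 without 6 different arrays in turn.

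Loss of the remaining Irx5 copy was measured in 2 pairs of groups that share no array, one labelled Irx3-/- and one whose titles name no Irx3 mutation. Of the 45 genes, 38 lay above 0 in both pairs and 0 below 0 in both, while over all genes 27.4% lay above 0 in both. The sizes of the differences were only weakly related between the pairs, with a correlation of 0.145 across the 45 genes and 0.391 across all 19931, which are not independent of each other. In 37 genes the difference was larger where Irx3 was lost, against 50.3% of all genes. Kif2c and Racgap1 were among the exceptions, at 0.79 and 0.65 without the Irx3 mutation and 0.38 and 0.43 with it. Tacc3, Kif20a and Cenpe were the reverse, at -0.08, -0.16 and 0.01 without it and 0.55, 0.49 and 0.50 with it. The interaction tests that difference gene by gene, and 0 of 45 passed in limma (0% of all genes called). Of the 45, 8 were above 0 and 0 below at an unadjusted p under 0.05, where 1.89% of all genes were above and 2.16% below, with a median of 0.21 over the 45 genes (0.00 over all genes). They included Tacc3 at 0.64 ± 0.16 (SE), Cenpe at 0.49 ± 0.16, Ndc80 at 0.45 ± 0.16, Kif20a at 0.66 ± 0.23, Tpx2 at 0.46 ± 0.17 and Mki67 at 0.47 ± 0.18. The lowest were Kif2c at -0.41 ± 0.26 and Racgap1 at -0.22 ± 0.32. Incenp and Prc1 were the other 2 of the 8. Without reference replicate 3 the count was 5. Leaving out Irx5-/- replicate 1 gave a median of 0.13, and leaving out replicate 3 of the Irx3-/-;Irx5+/- hearts one of 0.14.

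**Figure D4:**
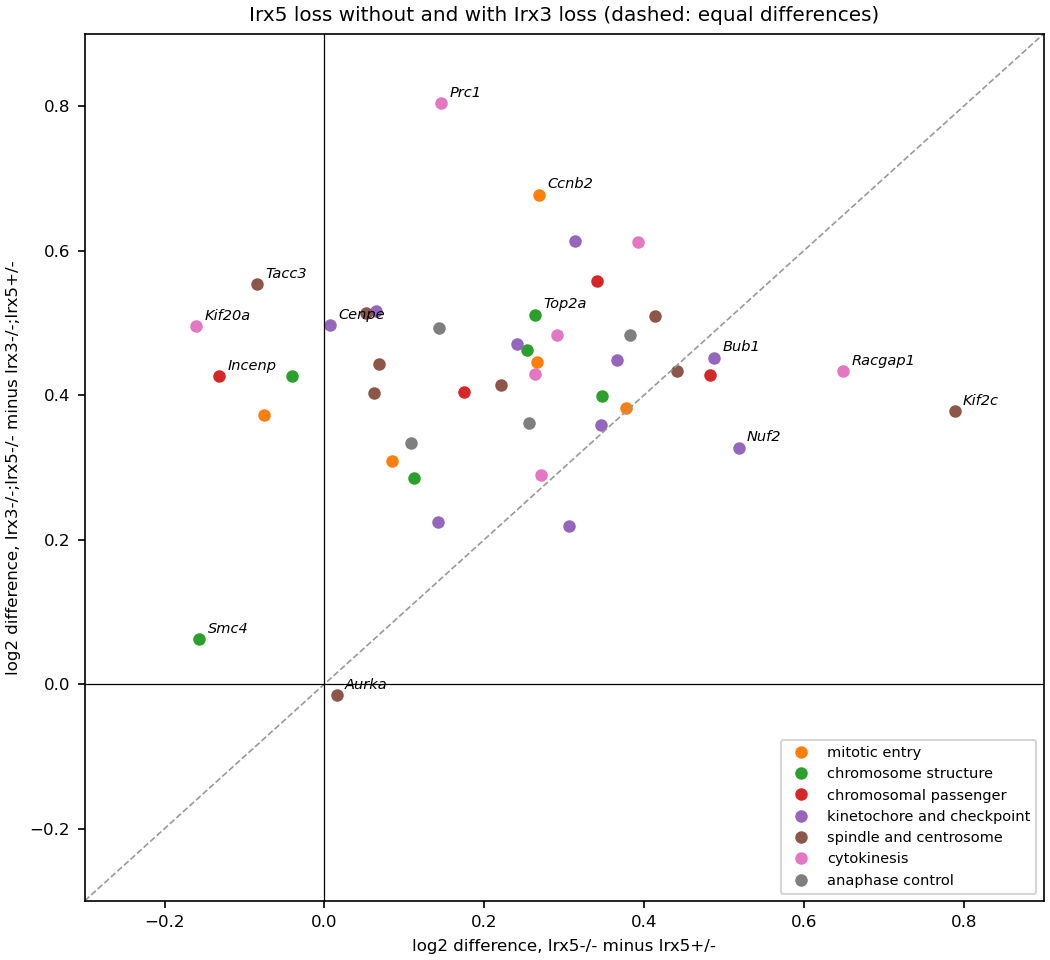
Log2 difference with loss of the remaining Irx5 copy for 45 G2 and mitosis genes, coloured by function, in hearts whose titles name no Irx3 mutation (horizontal axis) and in Irx3-/- hearts (vertical axis). The axes share no array, the dashed line marks equal differences, and 37 of the 45 genes lie above it.

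Pairs of the genes varied together loosely within a genotype, yet more than pairs of all genes did. Counts over the 45 genes are therefore not counts of independent genes. With each group's mean removed, the mean pairwise correlation of the 45 genes over the 14 arrays was 0.129 (990 pairs, 64.8% above 0), against 0.0182 over all genes, and the arrays share their amplification and normalisation. Kif20a, Hmmr and Kif11 followed the mean of the other 44 genes most closely, with correlations of 0.925, 0.873 and 0.834. Plk4 and Nuf2 went against it, at -0.439 and -0.324. Within groups, the mean of the 45 genes correlated with the means of the lists described below from -0.698 (epicardial genes) to 0.802 (58 further G2 and mitosis genes). The value was 0.678 for the cell cycle transcription regulators and 0.49 for the DNA replication genes. Genes with a CHR core in the promoter had a median Irx5 effect of 0.38 (28 genes) and those without one 0.28 (10 genes), and the ranges overlapped. In double mutants against Irx3-/-;Irx5+/- hearts the medians were 0.43 and 0.44.

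Genes of neighbouring steps in the cell cycle differed in how far they lay to the same side. For comparison, 8.32% of all genes were higher for the mean Irx5 effect at an unadjusted p under 0.05 and 42.9% lay above 0. Of 58 further measured genes of G2 and mitosis, 56 lay above 0 for the mean Irx5 effect with a median of 0.29, 28 had an unadjusted p under 0.05 on the higher side and 0 passed. Aspm, a spindle pole protein, lay at 0.43 ± 0.08 (SE, adjusted p = 0.0852) and Cdca3, a trigger of mitotic entry, at 0.54 ± 0.11 (adjusted p = 0.0924). These were the 2 of the 58 genes whose Irx5-/- arrays all lay above the other arrays, which held for 0.266% of all genes. Of 31 DNA replication genes, 28 lay above 0 with a median of 0.17, 9 were higher at an unadjusted p under 0.05 and 0 passed, with Rrm1, a subunit of ribonucleotide reductase, at 0.51 ± 0.09 and Cdc45, of the replicative helicase, at 0.40 ± 0.11. The 16 subunits and regulators of the anaphase-promoting complex had a median of 0.12, with 13 above 0, 2 higher at an unadjusted p under 0.05 and 0 passing, namely Anapc11 at 0.41 ± 0.13 and Anapc13 at 0.23 ± 0.09, a count near the share of all genes. The 22 cell cycle transcription regulators (E2F, retinoblastoma, MuvB and Foxm1 genes among them) had a median of 0.08, with 13 above 0, 3 higher at an unadjusted p under 0.05, again near the share of all genes, and 0 passing. Lin9, a subunit of the MuvB core, lay at 0.64 ± 0.11 (SE, adjusted p = 0.0852) and Tfdp1, the partner of E2F factors, at 0.17 ± 0.06.

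Markers of the heart's cell types also differed between the groups, with endothelial genes following the Irx5 state and sarcomere genes set apart mainly by a low reference. The 20 endothelial and endocardial genes all lay below 0 for the mean Irx5 effect (median -0.65). Of them 16 had an unadjusted p under 0.05, where 7.03% of all genes were lower, and 0 passed. Their mean deviation ran from -0.70 to 0.17 over the 7 Irx5-/- arrays and from 0.05 to 0.59 over the other 7. The 26 sarcomere genes, of cardiomyocytes, had a median of 0.61 with 25 above 0, 10 higher at an unadjusted p under 0.05 (8.32% of all genes) and 0 passing. Their mean ran from -0.30 to 0.79 in the Irx5-/- arrays. Among the other arrays it ran from -1.64 in reference replicate 3 to 0.38. The mean Irx3 effect on the sarcomere genes was as large (median 0.61, 25 above 0, 12 higher at an unadjusted p under 0.05, against 2.25% of all genes). In double mutants against Irx3-/-;Irx5+/- hearts 0 of 26 had an unadjusted p under 0.05 (median 0.30), where 4.06% of all genes were higher and 3.61% lower. The 10 epicardial genes had a median of 0.12, and their mean was highest at 1.11 in double mutant replicate 1 and 0.69 in Irx5-/- replicate 1, the arrays of those groups with the lowest G2 and mitosis means. Erythroid genes (9 measured, 1 above 0, median -0.13), macrophage genes (12, 7 above 0, median 0.05), cushion mesenchyme genes (13, 9 above 0, median 0.13) and smooth muscle and pericyte genes (8, 5 above 0, median 0.14) held no member that passed. All these markers were measured on every array. When the sarcomere mean of each array entered the model, the median Irx5 effect on the 45 genes was 0.28, with 43 above 0. With the endothelial mean as a term, added after seeing the data, it was 0.30 with 45 above 0. The genes of the 45 with an unadjusted p under 0.05 then went from 32 to 10, and those passing over all genes from 3 to 0. The share of all genes at that unadjusted level is not given with this term, so the fall is not shown to be particular to the 45 genes. With the epicardial mean as a term, also added after seeing the data, 11 of the 45 genes passed for the Irx5 effect (1.54% of all genes called, smallest adjusted p = 0.0265 in limma) and 9 for double mutants against the reference (2.96%), at a median Irx5 effect of 0.35. Y-linked genes and Xist, which differ between the sexes, were measured too (4 genes). For the mean Irx5 effect Eif2s3y lay at 0.94 and Xist at -1.09. In Irx5-/- against Irx5+/- hearts they lay at 2.06 and -2.07. In neither did any of the 4 have an unadjusted p under 0.05. With the Y-linked mean as a term, the genes passing over all genes for the Irx5 effect went from 3 to 0. The part of these cell types and of embryo sex in the result was not tested.

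**Figure D5:**
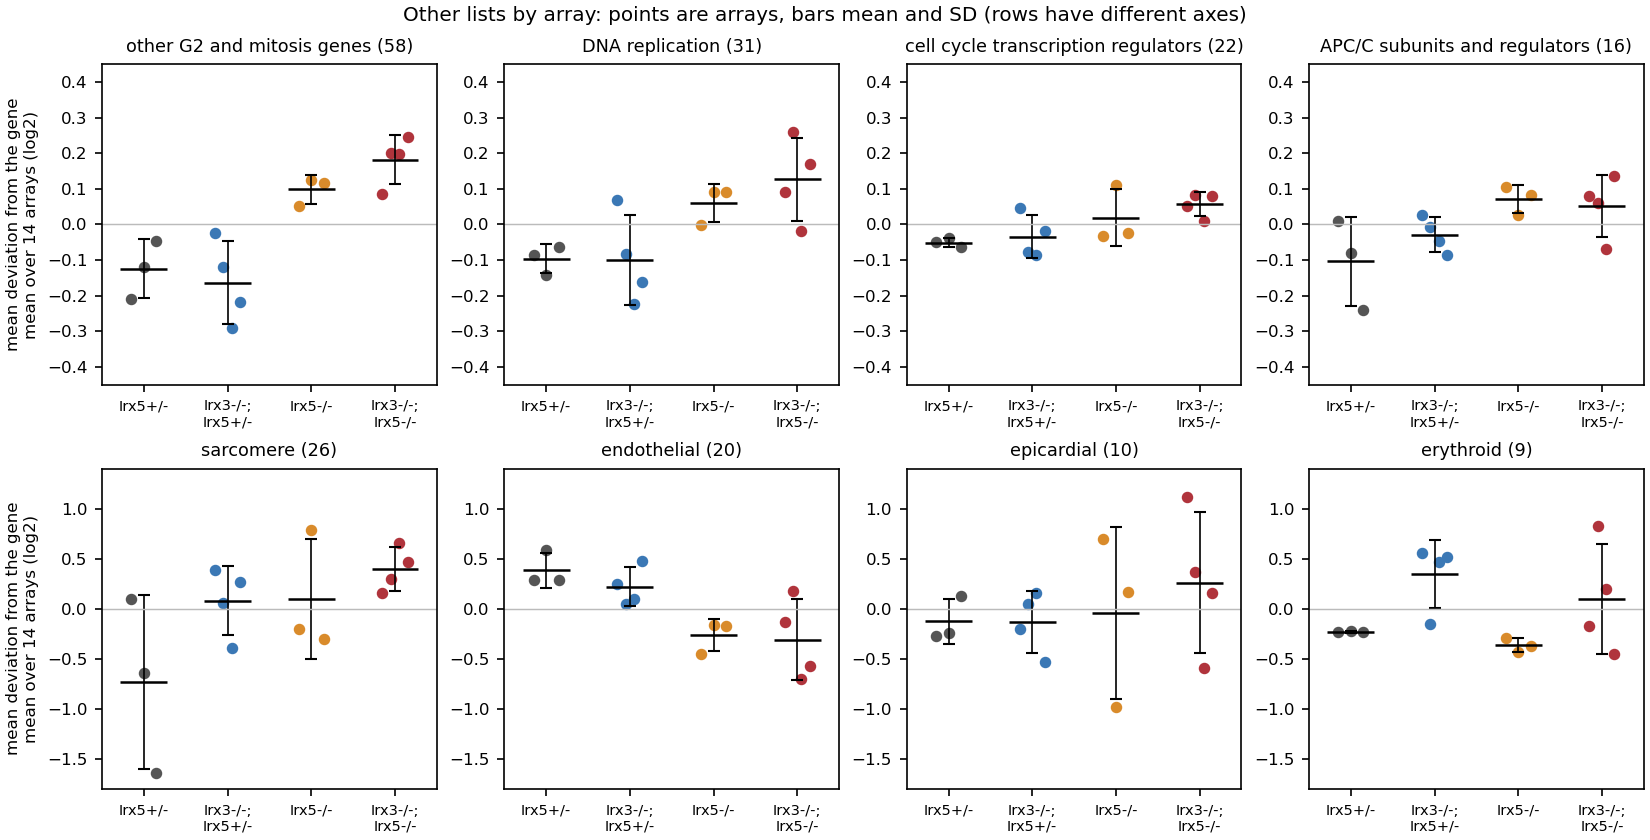
Mean deviation (log2) of 8 other gene lists from their own means over 14 arrays, with points for arrays and bars for the mean and SD of each genotype; the upper row holds cell cycle lists and the lower row cell type markers, on different axes. The 58 further G2 and mitosis genes separate the Irx5 states, the endothelial list is lower in most Irx5-/- arrays, and reference replicate 3 has the lowest sarcomere mean, -1.64.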

How the data were processed

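Per the labels' protocols, PicoPure-extracted RNA was amplified from 1 ng and hybridised to Affymetrix Mouse Gene 1.0 ST arrays. The deposited values are log2 intensities that the authors made with RMA over all arrays, and then filtered to probe sets whose mean exceeded 3 in some group, per the file headers. The authors' tool versions and genome build were not given in the sources used here. RMA makes intensities comparable between arrays but not between genes, so levels were compared only within a gene. Of 28763 probe sets, 21776 carried 1 symbol, 1592 several and 5395 none, and those with 1 gave 19931 genes by the probe set with the highest mean. Current or older symbols were matched. One linear model with a mean per genotype was fitted to all 14 arrays in limma 3.58.1 (R 4.3.3), with 10 residual degrees of freedom, 2-sided tests and Benjamini-Hochberg adjustment over all genes, and a gene passed at an adjusted p under 0.05. Precision is limited by how few arrays each genotype had, and the median residual SD was 0.186. Genes named in each comparison were up to 6 with the smallest p and the 2 with the most negative difference; array values are given for the 2 smallest and the largest p of each function, and those of Tacc3 and Cenpe were added after their values were seen. The members and lists were chosen with earlier results of these data known. Alternatives were 10 other settings and leaving out each of the 14 arrays.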

Additional observations from a re-analysis of the deposited data

Results flagged for a closer look

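In 2 of 58 sets of 4 arrays tested, 1 array stood far from the other 3 of its genotype, and chance gives about 5% of such sets. Both were of Irx3-/-;Irx5+/- hearts. The mean deviation of the 6 chromosome structure genes was -0.32 in replicate 2, against -0.16 to -0.13 in the other 3. The mean deviation of the 7 cytokinesis genes was -0.01 in replicate 1, against -0.33 to -0.27 in the other 3.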

How the results depend on the processing

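The median difference of the 45 genes kept its direction in the settings tried for 7 of the 8 comparisons, and for the mean Irx3 effect it was -0.006 with the sarcomere mean as a term, against 0.046. Of the values by comparison 419 stayed near the reported one and 43 moved. Counts below are genes of the 45 higher at an unadjusted p under 0.05 unless stated, and the share of all genes in each setting is not given. For Irx3-/-;Irx5+/- against Irx5+/-, 2 became 1 with an intensity trend, with median-centred arrays and with the sarcomere or endothelial term, and the median was -0.15 with the sarcomere term. For Irx5-/- against Irx5+/-, 9 became 5 with the endothelial and 15 with the epicardial term, and the median was 0.13 (0.128) with the sarcomere term. For double mutants, 26 became 10 (sarcomere) and 12 (endothelial) against Irx5+/-, 33 became 19 (endothelial) against Irx3-/-;Irx5+/-, and 2 became 7 (epicardial) against Irx5-/-. For the mean Irx5 effect 32 became 10 (endothelial), and for the mean Irx3 effect 2 became 1 (sarcomere) and 4 (epicardial). With the epicardial term 9 of the 45 genes passed for double mutants against Irx5+/- (2.96% of all genes) and 11 for the Irx5 effect (1.54% of all genes). The endothelial and epicardial terms were chosen after seeing the data, and the cause of these moves was not tested.

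Leaving out 1 array gave counts of 0 to 3 (Irx3-/-;Irx5+/- against Irx5+/-), 5 to 13 (Irx5-/- against Irx5+/-), 16 to 25 (double mutants against Irx5+/-, where 0 to 1 passed, and 0 to 23 over all genes), 26 to 36 (against Irx3-/-;Irx5+/-), 1 to 6 (against Irx5-/-), 5 to 9 (interaction), 30 to 34 (Irx5 effect) and 0 to 4 (Irx3 effect). The medians ran from -0.132 to -0.016, 0.132 to 0.272, 0.327 to 0.383, 0.403 to 0.488, 0.114 to 0.199 and 0.127 to 0.297 for the first 6 of these, in that order.

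Signs turned in 26 cases of single genes, all of them with a reported difference that rounds to 0.06 or less in size. Ttk in double mutants against Irx5+/- was -0.085 (endothelial), -0.063 (epicardial) and -0.072 to 0.104 without 1 array. Mki67 was -0.139 (endothelial) and -0.128 to 0.128. Against Irx3-/-;Irx5+/-, Aurka was 0.009 (centred), 0.228 (endothelial), 0.042 (epicardial) and -0.184 to 0.151, and Smc4 -0.014 to 0.10. Nuf2 against Irx5-/- was 0.045 (sarcomere) and -0.119 to 0.004. For the Irx5 effect Smc4 was 0.056 (endothelial) and Aurka -0.147 (sarcomere) and -0.099 to 0.083.

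Replicate numbers were not used as pairs in the main model. With group means removed, 19 same-numbered pairs of arrays correlated from -0.179 to 0.191, 4 of them above 0.1. Among replicate 3 of Irx5+/-, Irx3-/-;Irx5+/- and Irx5-/- hearts the correlations were 0.144, 0.191 and 0.156. Pairs with different numbers were not compared, so whether the numbers mark arrays handled together was not tested. With the replicate block the count was 0 for Irx3-/-;Irx5+/- against Irx5+/- and 1 for double mutants against Irx5-/-.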
